A study of Rattus norvegicus with 25 samples.

Results

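The Gadd45 family (Gadd45a, Gadd45b and Gadd45g) and the growth-arrest genes Cdkn1a, Cdkn1b, Mdm2, Btg2, Ccng1 and Ccnd1 were followed in rat hepatoma lines that express human Sar1 proteins. Members were chosen by name, with earlier results of these data known. Every probe set (a group of short probes read as 1 value) that the probe annotation assigns to exactly 1 of these symbols was kept. This gave 14 of 31042 probe sets, for 8 of the 14217 genes with such a probe set. Btg2 is the member without one, and its level is not reported here.

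Gadd45 proteins are small acidic stress proteins without enzyme activity that bind PCNA, the Cdk1 and cyclin B1 complex and the kinase Map3k4, through which p38 and JNK are switched on. The gene of Gadd45a is induced by DNA damage through p53 and, without p53, by ATF4 when translation is curbed by stress, whereas Gadd45b and Gadd45g answer mainly to cytokines and differentiation signals. The p53 protein also switches on Cdkn1a (p21), which stops cyclin-dependent kinases, Ccng1 (cyclin G1) and Mdm2, the ubiquitin ligase that degrades p53, while cyclin D1 drives cells out of G1. Sar1 is the small GTPase that starts the COPII coat of vesicles leaving the endoplasmic reticulum (ER), and its H79G form, written Sar1B:H79G here, cannot hydrolyze GTP.

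All lines were single picked clones of McArdle-RH7777 rat hepatoma cells, which secrete apoB lipoproteins. They carried the tetracycline repressor from pcDNA6/TR and were grown in blasticidin and Zeocin. Every line, controls included, received 1 µg/ml tetracycline for 24 h before harvest, and the cells kept their own rat Sar1 genes. The control group comprised 2 lines with empty pcDNA4/TO vector (2 and 3 arrays). Human FLAG-tagged proteins were expressed in 1 Sar1A line (4 arrays), 2 Sar1B lines (4 arrays each) and 2 Sar1B:H79G lines (4 arrays each). The authors reported the most recombinant Sar1 in Sar1A lines and the least in Sar1B lines, and a rise of the cells' own Sar1a in Sar1B:H79G lines. The part of these levels in the differences between groups was not tested. Arrays of a line were technical replicates and were averaged, so that each group had 2 lines, or 1 for Sar1A. Every p-value rested on a spread between clones that was pooled over the groups and moderated by limma across all probe sets. The Sar1A group, with 1 line, added nothing to that spread.

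Values are log2 signals normalized by the authors, and 1 unit is a doubling. Array medians lay between 8.10 and 8.16, and the median correlation was 0.995 between arrays of a line. Of the 10 hepatocyte markers listed, 9 were measured, with a mean log2 signal per line from 11.54 to 12.23, against 7.66 to 7.88 for leukocyte and fibroblast or stellate markers. Endothelial markers averaged 6.85 to 7.05 and biliary markers 8.25 to 8.53. Single genes of these lists were brighter, with group means of 10.12 to 10.74 for biliary Epcam and 9.75 to 9.91 for Acta2 of the fibroblast or stellate list. Between Sar1B:H79G and control lines limma called 3 of the 9 hepatocyte markers as lower and 0 as higher. The share of all genes so called was 10.6% and 13.4%. Of the other markers 1, an endothelial one, was called, as lower. All control arrays belong to one array series and all others to another, so series and construct cannot be told apart in any comparison with control. The gap between the 5′ and 3′ signals of 4 poly-A spike-in controls averaged -1.90 in control lines and -1.13 in the others, and that of β-actin -0.88 and -0.59; their part in the differences from control was not tested. The Sar1A, Sar1B and Sar1B:H79G lines share a series, in which the β-actin gap was -0.71 and -0.63 in the Sar1B:H79G lines, -0.50 and -0.49 in the Sar1B lines and -0.61 in the Sar1A line, and its part was likewise not tested.

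Upstream sequence is shown for Gadd45a, Cdkn1a and Ccng1, which rose together in the Sar1B:H79G lines and for Gadd45g, which was lower there than in the Sar1B and Sar1A lines. Promoter windows were found for 8 of the 9 members in the RefSeq table of the GRCr8 assembly, and Ccnd1 had no entry. Mdm2 rose in the same lines by 2 of its 3 probe sets, but its window lies inside the annotated gene and is not printed. In the stretches below, written 5′ to 3′ on the gene's strand, capitals mark a p53 decamer (the unit that occurs as a pair in p53 response elements), TGATGCAA (the core of an ATF4 and C/EBP composite element, on either strand) or TATAAA. The Cdkn1a stretch ends where the annotated gene begins, 138 bases in, since its window lies partly inside a longer transcript.
Gadd45a, chr4:97486800-97487049, minus strand: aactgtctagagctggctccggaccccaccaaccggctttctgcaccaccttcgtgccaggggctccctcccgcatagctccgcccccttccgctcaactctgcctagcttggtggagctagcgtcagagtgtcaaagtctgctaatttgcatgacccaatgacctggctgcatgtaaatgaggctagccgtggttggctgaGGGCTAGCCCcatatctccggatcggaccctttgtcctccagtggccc
Cdkn1a, chr20:7150682-7150819, plus strand: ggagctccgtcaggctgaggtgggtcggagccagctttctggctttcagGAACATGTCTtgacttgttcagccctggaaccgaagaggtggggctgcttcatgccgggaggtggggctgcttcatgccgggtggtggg
Ccng1, chr10:25684877-25685126, minus strand: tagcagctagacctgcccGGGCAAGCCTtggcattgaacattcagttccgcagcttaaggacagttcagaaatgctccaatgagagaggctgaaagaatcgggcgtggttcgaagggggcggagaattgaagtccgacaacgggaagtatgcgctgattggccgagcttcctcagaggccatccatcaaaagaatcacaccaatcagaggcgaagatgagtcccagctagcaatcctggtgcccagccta
Gadd45g, chr17:13530352-13530601, minus strand: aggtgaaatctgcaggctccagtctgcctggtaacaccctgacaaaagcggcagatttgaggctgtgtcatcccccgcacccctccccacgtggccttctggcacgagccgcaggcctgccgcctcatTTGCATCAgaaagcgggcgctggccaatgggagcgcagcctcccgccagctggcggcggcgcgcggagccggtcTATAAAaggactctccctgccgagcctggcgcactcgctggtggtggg

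Within the 250 bases before the start, a p53 decamer matched in Gadd45a (bases 48 to 39 before the start), Cdkn1a (201 to 192) and Ccng1 (232 to 223), and in none of the other members' windows, that of Mdm2 included. Both strands were searched, and 6.64% of the 33469 promoters in the table hold such a match. The TGATGCAA word matched only in Gadd45g, at bases 122 to 115 (0.693% of promoters). TGACGTCA, the cyclic AMP response element, matched only in Btg2 (1.59%), and TATAAA only in Gadd45g (12.9%). CCAAT, which is left in lower case above, matched in 7 of the 8 windows and in 34% of all promoters. Matches of different motifs did not overlap in these windows, and a match is a description of the letters, not of binding.

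Gadd45a rose in the Sar1B:H79G lines by 2.64 ± 0.23 (log2 difference ± SE, 2 lines against 2) over control, or 6.22-fold, farther than any other of the 14 probe sets, and it was 3.20-fold higher than in Sar1B lines. Its paralogs did not follow: Gadd45g was lower in Sar1B:H79G than in Sar1B or Sar1A lines, and no difference of Gadd45b was called, at a mean level near or below the median probe set (8.13) in every group. A change in the share of cells holding a transcript and a change in the amount per cell cannot be told apart in RNA of whole cultures.

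The Gadd45a signals of control line 1 were 9.28 and 9.36, and those of control line 2 were 9.31, 9.50 and 9.23. In the Sar1A line the 4 arrays read 9.88, 9.69, 9.76 and 9.74. Sar1B arrays ran from 10.01 through a median of 10.28 to 10.53, and Sar1B:H79G arrays from 11.57 through 11.95 to 12.44. No array of any group overlapped those of another, so that the order was control, Sar1A, Sar1B, Sar1B:H79G. Clones of a construct differed too, with line means of 10.49 and 10.10 for Sar1B and of 12.32 and 11.63 for Sar1B:H79G. By limma, Sar1B:H79G differed from control (adjusted p = 0.00193), from Sar1B (1.68 ± 0.23, adjusted p = 0.0113) and from Sar1A (2.20 ± 0.28, adjusted p = 0.0200). The last of these calls was lost when only those groups were fitted (limma adjusted p = 0.117) and without either control line (0.0810 each). The neighbours lower in the order were not called. The Sar1B lines lay 0.96 above control (95% interval 0.40 to 1.52, limma adjusted p = 0.0584). This difference was called in 7 of 14 alternatives, among them only those groups fitted (limma adjusted p = 0.0214). Leaving out either Sar1B:H79G line repeated that fit, and others used single arrays, so the 7 are not independent of each other. The Sar1A line lay 0.43 above control (-0.26 to 1.13), and Sar1A minus Sar1B was -0.53 (-1.22 to 0.17).

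For Gadd45g the group means ran from Sar1B:H79G (8.17) through control (8.65) and Sar1B (8.90) to Sar1A (9.31). Control line 1 read 8.72 and 8.70, and control line 2 read 8.44, 8.73 and 8.63. Signals of the Sar1A line were 9.40, 9.20, 9.35 and 9.28, those of the Sar1B lines ran from 8.63 through 8.83 to 9.20, and those of the Sar1B:H79G lines from 7.83 through 8.23 to 8.40. All Sar1B:H79G arrays thus lay below all others, and the Sar1A arrays lay at or above the top of the Sar1B range, to 2 decimals. Gadd45g was 1.66-fold lower in Sar1B:H79G than in Sar1B lines (log2 difference -0.73 ± 0.14, limma adjusted p = 0.0315) and 2.20-fold lower than in Sar1A (-1.14 ± 0.17, limma adjusted p = 0.0309). Each call was lost when only those groups were fitted, without either control line and without Sar1B:H79G line 2. The first was also lost without Sar1B line 2 and with the line number as a replicate block (limma adjusted p = 0.0564). For the first, leaving out either control line gives the same fit as those groups alone. Against control the difference was -0.48 (95% interval -0.83 to -0.14) and missed the threshold (limma adjusted p = 0.0561), but it was called in 7 of 14 alternatives, among them quantile normalization (limma adjusted p = 0.034). The Sar1A line lay 0.65 above control (0.23 to 1.07), which also missed it (limma adjusted p = 0.112).

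Gadd45b varied least of the family. Line means were 8.07 and 7.94 in control, 8.17 in Sar1A, 8.10 and 7.95 in Sar1B, and 7.75 and 7.78 in Sar1B:H79G. The Sar1B:H79G arrays, from 7.61 to 7.85, lay just under the lowest array of the other groups (7.86). The difference from control was -0.24 (95% interval -0.44 to -0.04, limma adjusted p = 0.0809), and limma called 0 of the 6 comparisons between groups, 3 of which had an unadjusted p under 0.05.

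**Figure D1:**
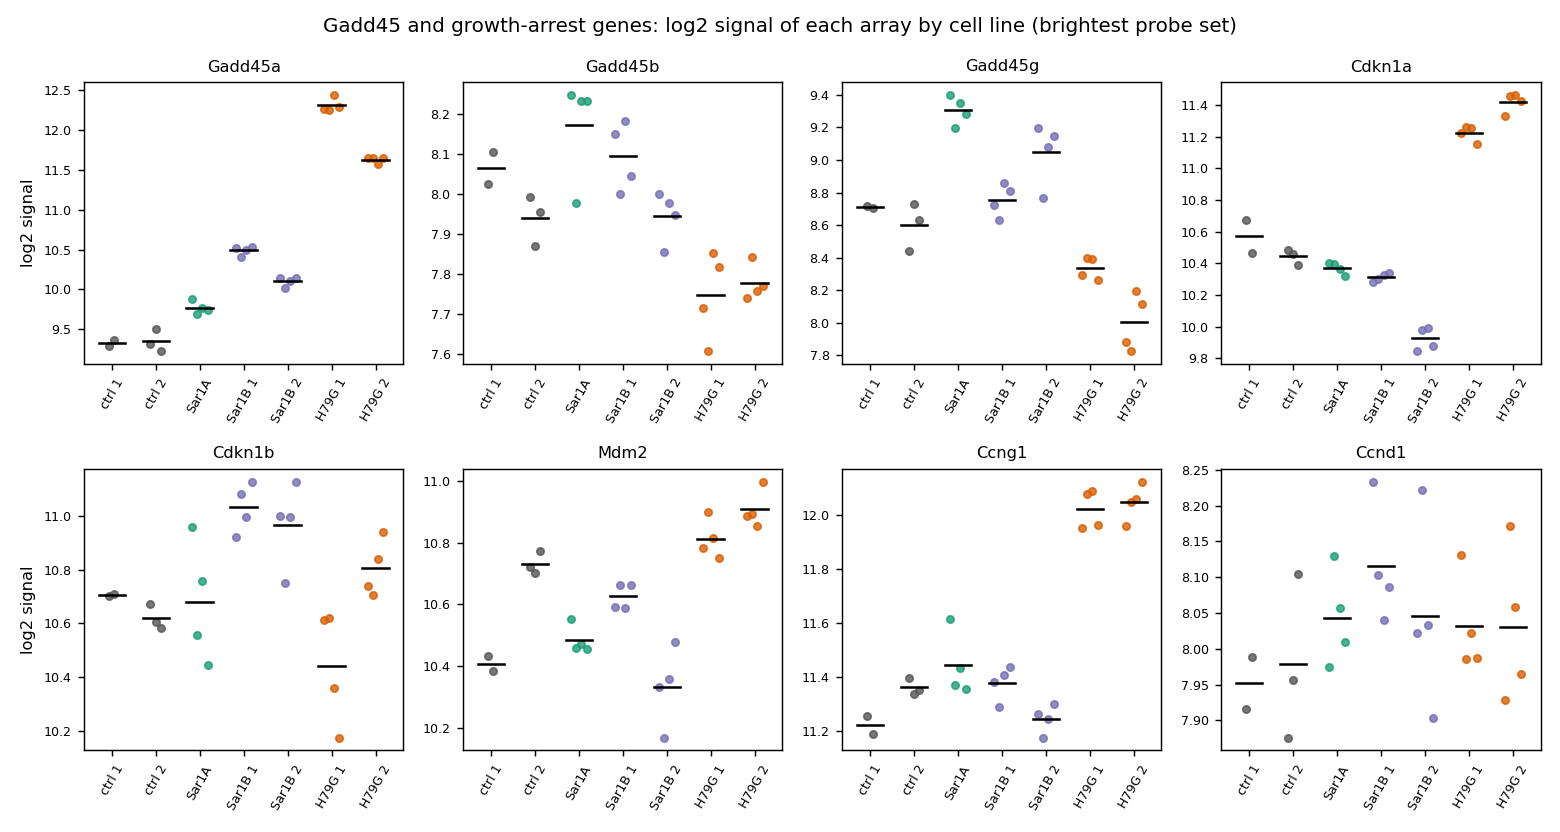
Log2 signal (vertical axis, a separate range in each panel) of every array for the brightest probe set of each gene, by cell line (horizontal axis: 2 control lines, ctrl, then Sar1A, Sar1B and Sar1B:H79G, written H79G). Points are arrays and bars are line means; Gadd45a climbs to 12.32 and 11.63 in the Sar1B:H79G lines while Gadd45g falls to 8.34 and 8.01, and the Ccnd1 lines all lie between 7.95 and 8.12.

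Cdkn1a, the p21 inhibitor of cyclin-dependent kinases, rose in the Sar1B:H79G lines by both of its probe sets. For the brighter one, 1388674_at, control arrays read 10.68 and 10.47 in line 1 and 10.49, 10.46 and 10.39 in line 2, and the Sar1A arrays read 10.40, 10.40, 10.36 and 10.32. The Sar1B arrays lay between 9.85 and 10.34 with a median of 10.14, and the Sar1B:H79G arrays between 11.15 and 11.46 with a median of 11.30. Thus every Sar1B:H79G array exceeded every other array, and all Sar1B arrays lay under all control arrays.

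The log2 difference of this probe set was 0.81 ± 0.14 against control (1.76-fold, limma adjusted p = 0.0132), 1.20 ± 0.14 against Sar1B (2.30-fold, limma adjusted p = 0.00707) and 0.95 ± 0.17 against Sar1A (1.93-fold, limma adjusted p = 0.0491). Without control line 1 or control line 2 the call against control was lost (limma adjusted p of 0.0517 and 0.102). The difference of Sar1B from control was -0.39 (95% interval -0.73 to -0.04), which did not pass the test (limma adjusted p = 0.135). The dimmer probe set, 1387391_at, had line means of 8.32 and 7.98 in control, 8.57 in Sar1A, 8.49 and 8.22 in Sar1B, and 9.59 and 9.57 in Sar1B:H79G. It placed Sar1B:H79G 1.43 ± 0.14 above control (2.70-fold, limma adjusted p = 0.00253), 1.22 above Sar1B and 1.01 above Sar1A (limma adjusted p of 0.00642 and 0.0386). The calls of both probe sets against Sar1A were lost without either control line, without either Sar1B:H79G line and when only those groups were fitted. That of 1388674_at was also lost after quantile normalization and after median alignment of the arrays, and so under 7 of 13 alternatives. The probe sets disagreed on Sar1B against control, at -0.39 and 0.21, and neither difference was called.

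Cdkn1b (p27), the other inhibitor of this family among the members, had 0 of its 12 tests (2 probe sets in 6 comparisons) called by limma, and 2 had an unadjusted p under 0.05. Line means of its brighter probe set, 1373812_at, were 10.71 and 10.62 in control, 10.68 in Sar1A, 11.03 and 10.97 in Sar1B, and 10.44 and 10.81 in Sar1B:H79G. The arrays of Sar1B, 10.75 to 11.13, lay above all control arrays (10.58 to 10.71), and the Sar1B:H79G clones lay on either side of control. The difference of Sar1B:H79G from control was -0.04 with a 95% interval of -0.34 to 0.26, and that of Sar1B from control was 0.34 (0.04 to 0.64, limma adjusted p = 0.136). The dimmer probe set, 1369192_at, lay between 7.60 and 7.83 in all line means.

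Mdm2 was read by 3 probe sets, of which the brightest moved least. With probe set 1383485_at, control arrays read 8.00 and 8.21 in line 1 and 7.80, 7.95 and 7.72 in line 2, and Sar1A arrays 8.85, 8.79, 8.57 and 8.71. Sar1B arrays ran from 8.37 through 8.59 to 8.90 and Sar1B:H79G arrays from 8.99 through 9.11 to 9.24. Every line with a Sar1 construct was above both control lines, and the Sar1B:H79G arrays were above all others. The log2 difference from control was 1.14 ± 0.11 for Sar1B:H79G (2.21-fold, limma adjusted p = 0.00217), 0.64 ± 0.11 for Sar1B (1.56-fold, limma adjusted p = 0.0249) and 0.77 ± 0.13 for Sar1A (1.70-fold, limma adjusted p = 0.0549). The call for Sar1B was lost without control line 2, Sar1B line 1 or Sar1B line 2 (limma adjusted p of 0.128, 0.0881 and 0.074). This probe set was also 0.50 higher in Sar1B:H79G than in Sar1B (limma adjusted p = 0.0392), a call lost when any line of either group was left out.

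Probe set 1384427_at of Mdm2 had line means of 9.72 and 9.73 in control, 10.10 in Sar1A, 10.20 and 9.90 in Sar1B, and 10.58 and 10.78 in Sar1B:H79G. It was 0.96 ± 0.12 higher in Sar1B:H79G than in control (1.94-fold, limma adjusted p = 0.00446) and 0.63 ± 0.12 higher than in Sar1B (limma adjusted p = 0.0267). The latter call was lost without Sar1B line 2, without Sar1B:H79G line 2, without either control line and when only those groups were fitted. The brightest, 1383288_at, had control lines at 10.41 and 10.73 and Sar1B:H79G lines at 10.81 and 10.91, and the difference of 0.29 (95% interval -0.05 to 0.63) was not called. The control lines differed from each other more with this probe set than with 1384427_at, by 0.32 against 0.01.

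**Figure D2:**
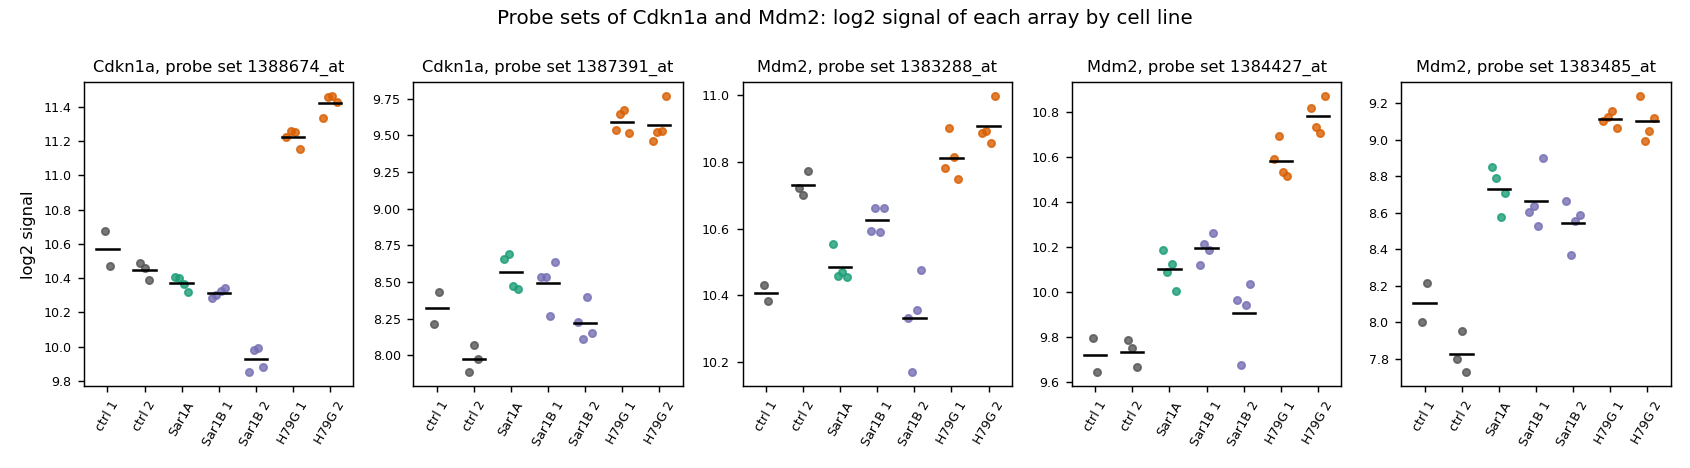
Log2 signal (vertical axis, a separate range in each panel) of every array for the 2 probe sets of Cdkn1a and the 3 of Mdm2, by cell line (horizontal axis: control, ctrl; Sar1A; Sar1B; Sar1B:H79G, written H79G), with bars at line means. The Sar1B:H79G lines are highest in each panel, but control line 2 reaches 10.73 with Mdm2 probe set 1383288_at, against 10.81 and 10.91.

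Ccng1, cyclin G1, is a p53 target whose protein works with Mdm2 rather than as a classical cyclin. Control signals were 11.25 and 11.19 in line 1 and 11.39, 11.33 and 11.35 in line 2, and Sar1A signals were 11.61, 11.37, 11.43 and 11.35. Sar1B signals ran from 11.17 through 11.29 to 11.43, and Sar1B:H79G signals from 11.95 through 12.05 to 12.12. The first 3 groups overlapped, and all Sar1B:H79G arrays lay above them. The log2 difference was 0.74 ± 0.08 against control (1.67-fold, limma adjusted p = 0.00329), 0.72 ± 0.08 against Sar1B (1.65-fold, limma adjusted p = 0.00625) and 0.59 ± 0.10 against Sar1A (1.51-fold, limma adjusted p = 0.0383). The first 2 of these calls held under each of the alternatives run, and the last was lost under 7 of 13, among them each control and each Sar1B:H79G line left out. Against control, the Sar1B lines differed by 0.02 (95% interval -0.17 to 0.21) and the Sar1A line by 0.15 (-0.09 to 0.39).

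Ccnd1, the cyclin that starts G1 progression, lay below the median probe set with each of its 3 probe sets, and limma called 0 of its 18 tests (3 probe sets in 6 comparisons), of which 1 had an unadjusted p under 0.05. The brightest, 1371150_at, had line means from 7.95 to 8.12, and Sar1B:H79G differed from control by 0.07 (95% interval -0.09 to 0.22). For 1371643_at this difference was 0.04 (-0.11 to 0.19). The dimmest, 1383075_at, read 6.52 to 6.77 in control and 5.96 to 6.68 in Sar1B:H79G, overlapping ranges, with a difference of -0.24 (-0.42 to -0.06, limma adjusted p = 0.0617).

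Counted over all 14 probe sets, 6 were called between Sar1B:H79G and control, all higher, where 22.3% of all probe sets were called in either direction, 13.2% as higher and 9.17% as lower. These 6 belong to Gadd45a, Cdkn1a (2), Mdm2 (2) and Ccng1. Between Sar1B:H79G and Sar1B, 6 were higher and 1, Gadd45g, was lower, where 8.63% of all probe sets were called in either direction, 3.34% as higher and 5.29% as lower. Between Sar1B:H79G and Sar1A, 4 were higher and 1, Gadd45g, was lower, where 2.96% of all probe sets were called in either direction, 1.33% as higher and 1.63% as lower. By the brightest probe set of each gene, 3 of 8 genes (Gadd45a, Cdkn1a and Ccng1) were higher against control and 0 lower (13.4% and 10.6% of all genes). Against Sar1B 3 were higher and 1 lower (4.9% and 7.18%), and against Sar1A 3 and 1 (1.98% and 2.22%). The median log2 difference of the 14 probe sets was 0.18 against control, 0.20 against Sar1B and 0.25 against Sar1A, where the median over all probe sets was 0.03, 0.01 and 0.01. Arrays of the groups did not overlap for 8 of the 14 probe sets against control (27.6% of all probe sets), 9 against Sar1B (13.2%) and 9 against Sar1A (16.4%). These comparisons share the Sar1B:H79G lines and are not independent of each other. Since the members were chosen with earlier results of these data known, the counts describe them and do not test them.

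Between Sar1B and control 1 of the 14 probe sets, of Mdm2, was called as higher, where 8.29% of all were called and 6.28% as higher, and 5 had an unadjusted p under 0.05, so that the members' share was near that of all probe sets. Between Sar1A and control limma called 0 of 14 (1.18% of all probe sets), and 4 had an unadjusted p under 0.05. Between Sar1A and Sar1B limma called 0 of 14 (0.00322% of all) and 0 had an unadjusted p under 0.05. In the last comparison the widest interval was that of Gadd45a.

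**Figure D3:**
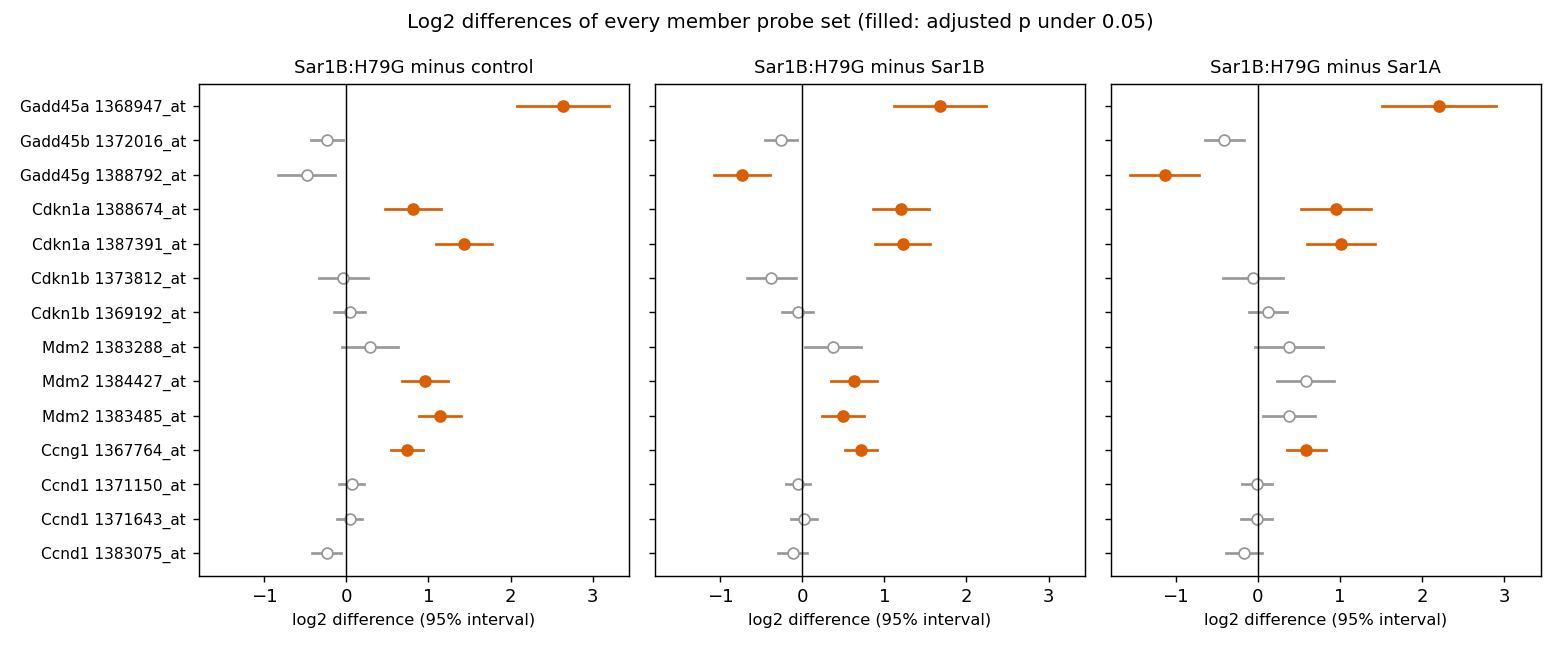
Log2 difference (horizontal axis) with its 95% interval for each of the 14 probe sets (vertical axis), for Sar1B:H79G minus control, minus Sar1B and minus Sar1A. Filled points passed the limma test at an adjusted p under 0.05; Gadd45a lies farthest to the right in each panel, at 2.64, 1.68 and 2.20, and Gadd45g farthest to the left, at -0.48, -0.73 and -1.14.

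Other genes of the pathway were taken from lists written for these members, also with earlier results of these data known. Counts within the lists are descriptions, not tests. Among p53 and its further targets, 25 of 35 genes were measured, and the gene of p53 itself was not analysed here. Between Sar1B:H79G and control 5 rose, 1 fell and 19 were not called, where 24% of all genes were called (13.4% as higher and 10.6% as lower), and the list's median was 0.12 against 0.02 over all genes. The largest were Gdf15, a secreted stress cytokine (1.49 ± 0.31, limma adjusted p = 0.0225), Plk2, a stress-induced polo-like kinase (1.10 ± 0.19, limma adjusted p = 0.0135), and the sestrin Sesn1, which fell (-0.95 ± 0.07, limma adjusted p = 0.00124). Sesn1 was lower in both Sar1B:H79G lines in each of the 3 comparisons, with differences of -0.53 against Sar1B and -0.74 against Sar1A, and between Sar1B and control it was also called (-0.42). Of the other p53 targets called between Sar1B:H79G and Sar1B (12.1% of all genes were called, 4.9% as higher and 7.18% as lower), the nuclease Aen and the repressor Bcl6 rose (0.79 and 0.54) and Ei24 fell (-0.54). In Sar1B against control the p53 antagonist Mdm4 rose (0.57), where 6.73% of all genes were called, and it was also higher in Sar1B:H79G than in control (0.53, limma adjusted p = 0.00878).

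Among the other CDK inhibitors all 5 were measured and 1 was called between Sar1B:H79G and control, a share near the 24% of all genes called. Cdkn2a, whose locus encodes p16 and the Mdm2 antagonist Arf, had line means of 11.47 and 11.21 in control, 11.41 in Sar1A, 11.22 and 11.78 in Sar1B, and 10.09 and 10.04 in Sar1B:H79G. It fell by 1.28 ± 0.18 against control (limma adjusted p = 0.00740), 1.44 against Sar1B (adjusted p = 0.00909) and 1.35 against Sar1A (adjusted p = 0.0386), so that it moved opposite to Cdkn1a in the same lines.

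Genes of G1 cyclins, their kinases, Rb and E2F were measured for 18 of 20, and between Sar1B:H79G and control 3 rose and 6 fell, where 13.4% of all genes were called as higher and 10.6% as lower. The largest were E2f5 (0.64), Ccne1, cyclin E1 (-0.45), and Cks1b, a CDK-binding subunit (0.44). Against Sar1B 0 rose and 4 fell (4.9% and 7.18% of all genes), namely Rbl2 (p130, -0.84), E2f1 (-0.62), Cdk2 (-0.54) and Ccne1 (-0.38), and against Sar1A only Ccne1 fell (-0.42), where 4.2% of all genes were called, 1.98% as higher and 2.22% as lower. Sar1B lines differed from control in Ccnd2, cyclin D2 (0.84), E2f5 (0.69), E2f1 (0.52) and Rb1 (-0.38). Of 19 proliferation genes measured, limma called 0 between Sar1B:H79G and control (24% of all genes), and 4 had an unadjusted p under 0.05. Against Sar1B 2 of the 19 fell (7.18% of all genes), the mitotic genes Ccnb2 (-0.63) and Aurkb (-0.44).

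Partners of Gadd45 proteins and the p38 and JNK kinases were measured for 13 of 16 genes. Between Sar1B:H79G and control 1 rose and 2 fell, a share near the 24% of all genes called (13.4% as higher and 10.6% as lower). Against Sar1B 0 rose and 3 fell (4.9% and 7.18% of all genes), and against Sar1A 0 rose and 2 fell (1.98% and 2.22%). Map2k6, a kinase that activates p38, had line means of 9.26 and 9.24 in control, 8.84 in Sar1A, 9.16 and 9.38 in Sar1B, and 8.17 and 8.16 in Sar1B:H79G. The Sar1B:H79G lines were lowest, and Map2k6 fell by 1.08 ± 0.08 against control (limma adjusted p = 0.00148), 1.10 against Sar1B and 0.67 against Sar1A. Map3k4, the kinase that Gadd45 proteins bind, fell against control (-0.48) and Sar1B (-0.43), and Pcna, the DNA polymerase clamp, rose against control (0.32). Gadd45gip1, a Gadd45-interacting protein gene, fell against Sar1B (-0.44), and Mapk14 (p38α) against Sar1A (-0.40). In the BTG and TOB family of antiproliferative proteins, to which Btg2 belongs, all 5 listed genes were measured. Tob1 (-0.80) and Btg1 (-0.63) fell and Btg3 rose (0.76) between Sar1B:H79G and control, where 24% of all genes were called. Only Tob1 was called against Sar1B, where it fell (-0.77) and 12.1% of all genes were called.

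Of the 17 genes listed as stress-response neighbours of Gadd45, 11 rose and 0 fell between Sar1B:H79G and control, where 13.4% of all genes were called as higher. The list's median difference was 1.41 against 0.02 over all genes. Ddit3 (CHOP) had line means of 9.09 and 9.26 in control, 9.44 in Sar1A, 9.57 and 8.83 in Sar1B, and 12.07 and 12.36 in Sar1B:H79G. Atf3 lay at 7.90 and 7.65, 7.79, 8.07 and 7.51, and 10.38 and 10.60 in the same order. Ppp1r15a (Gadd34), a phosphatase subunit that restores translation and shares only a name with the Gadd45 family, was at 9.19 and 9.20, 9.41, 9.59 and 9.24, and 11.77 and 11.62. Between Sar1B and control these 3 genes differed by 0.03, 0.02 and 0.22, beside 0.96 for Gadd45a, and none of these values was called. Their differences between Sar1B:H79G and control were 3.04, 2.71 and 2.49 (limma adjusted p of 0.00151, 0.00124 and 0.000898). Against Sar1B 11 of the 17 rose (4.9% of all genes), and the immediate early gene Egr1 fell (-1.45, limma adjusted p = 0.0219), and against Sar1A 8 rose (1.98% of all genes). Between Sar1B and control only Foxo3 of this list was called (-0.47), but 7 of the 17 had an unadjusted p under 0.05. The list's median difference there was 0.065, against 0.031 over all genes. Single genes lay higher or lower, so Ddit3, Atf3 and Ppp1r15a do not stand for each gene of the list in that comparison. Atf4, not called there, had line means of 12.49 and 11.96 in control and 12.67 and 12.64 in Sar1B. It lay at 13.04 in the Sar1A line, and at 14.02 and 13.67 in the Sar1B:H79G lines. Over the 102 measured genes of the 7 lists, limma called 0 between Sar1A and control (0.865% of all genes) and 0 between Sar1A and Sar1B (0.00703%), where 21 and 15 had an unadjusted p under 0.05.

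**Figure D4:**
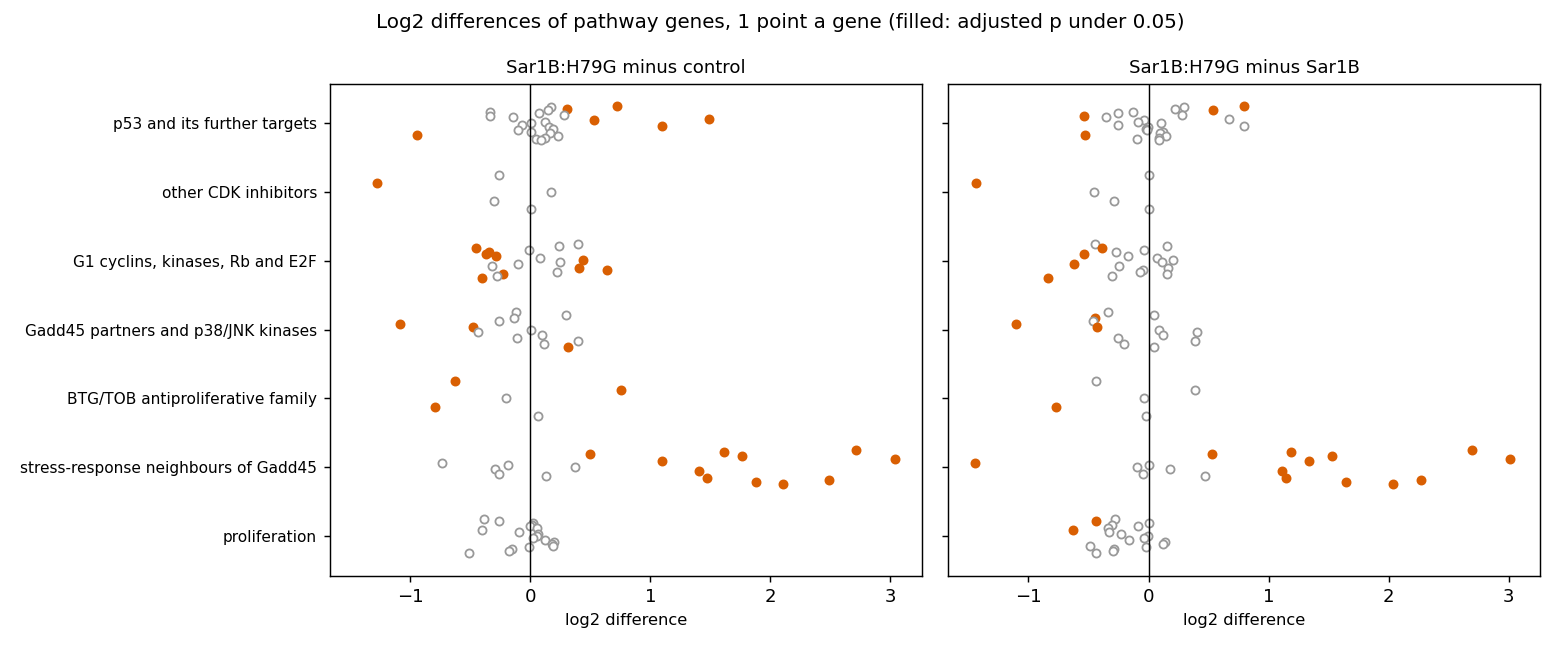
Log2 difference (horizontal axis) of each measured gene in the 7 pathway lists (vertical axis, 1 point a gene), for Sar1B:H79G minus control and minus Sar1B; filled points passed the limma test at an adjusted p under 0.05. The stress-response list holds 11 filled points to the right in both panels, Ddit3 the farthest at 3.04 and 3.01, whereas the p53 and G1 lists hold points on both sides.

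Likeness of pattern was measured as the root mean square difference between the 7 centred line means of a member's brightest probe set and those of the 9431 or 9432 other genes above the median probe set. For Gadd45a the nearest were Plcd4 (0.197), Abcb1a (0.228) and Tnfrsf26 (0.250), where the root mean square of the Gadd45a pattern itself was 1.07. For Ccng1 they were Grhl1 (0.0414), Zfp664 (0.0444) and Tmem62 (0.0558), and for Cdkn1a Cinp (0.117), Josd2 (0.129) and Ddx24 (0.130). The root mean square of the pattern itself was 0.326 for Ccng1, 0.489 for Cdkn1a and 0.399 for Gadd45g. The distance is not scaled to it, so distances are not compared between members. Nearest to Gadd45g were Sinhcaf (0.0902), Ssbp4 (0.109) and 4930522L14Rikl (0.111), and to Mdm2 Mfsd5, Ssu72 and Wdr74 (0.0705 to 0.0838). The patterns of Gadd45b, Cdkn1b, Ccnd1 and the brightest Mdm2 probe set were nearly flat, with a root mean square of 0.148, 0.189, 0.0484 and 0.199, so that likeness to them carries little shape. No other member was among the 3 nearest of any member.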

How the data were processed

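Transcripts of 7 stable McArdle-RH7777 lines were measured on 25 Affymetrix rat arrays. Loess normalization and MAS 5 summaries were made by the authors in CARMAweb (version not given in the sources used here). They deposited a log2 value for each probe set on each array. Their range set the log base, and with no detection calls a dim probe set could not be told from background. The 57 array controls were left out. Arrays were averaged per line, and limma 3.58.1 (R 4.3.3) was fitted to the 7 line means over 31042 probe sets with a coefficient per group (3 residual and 3.16 prior degrees of freedom). P-values were adjusted by Benjamini-Hochberg over all probe sets and called under 0.05, and the shares of all probe sets called were computed from the same fit. The array number and 2 or 1 lines per group limit precision. A gene was represented by its brightest probe set with 1 symbol.

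The members and the gene lists were chosen with earlier results of these data known. Named are all probe sets of the members, the 3 largest called genes of each list and comparison (all called where there were 5 or fewer), and the 3 genes nearest in pattern to each member. Atf4 is named besides, as the gene of an inducer of Gadd45a. The fit was repeated with arrays in place of lines as replicates, with a random line effect (statmod 1.5.0), after quantile normalization or median alignment of the arrays, on only the pair of groups compared, with a trended and robust prior, with line numbers as a replicate block, without dim probe sets, without single lines, and with a gene's probe sets averaged. The SAM test of the methods, which permutes arrays, was not run because arrays of a line are technical replicates. Line numbers mark lines only, and deviations of lines of the same number correlated at 0.0071, 0.192 and 0.0752.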

Additional observations from a re-analysis of the deposited data

Results flagged for a closer look

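For each of the 14 member probe sets and each of the 4 groups, with the arrays of both lines pooled, the highest and the lowest array were compared with the others of the group by Dixon's ratio, which gave 56 tests. Chance flags about 1 in 20 groups whose arrays share 1 mean. Of the 56 tests 3 were flagged, each among the 4 arrays of Sar1A, the smallest group and the one with a single line. The other groups pool clones whose means can differ, where that rate need not hold, so 3 of 56 is not set against it. Single lines of the other groups were not tested. Gadd45b read 7.98 on array 2, the lowest, where the next array read 8.23. Mdm2 probe set 1383288_at read 10.55 on array 1, the highest, with the next at 10.47. Ccnd1 probe set 1383075_at read 6.71 on array 4, the highest, with the next at 6.54.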

How the results depend on the processing

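Of 1104 recomputed values for single probe sets, 993 kept their direction and their side of the threshold, 46 lost a call, 65 gained one and 0 changed direction after a call. Not all of these are separate fits. A group left with 1 line adds no spread, so dropping either line of a group not compared gives the same test. Among control, Sar1B and Sar1B:H79G that test is also the one with only the groups compared. Tallies of alternatives count each of these. Counts of called member probe sets moved more, and the cause was not tested. With each array as a replicate, which treats technical replicates as independent, the counts were 10 for Sar1B:H79G against control (6 as reported), 7 for Sar1B against control (1), 6 for Sar1A against control (0), 9 for Sar1B:H79G against Sar1A (5) and 3 for Sar1A against Sar1B (0). With the line as a random block (correlation 0.27) they were 5 for Sar1B and 5 for Sar1A against control, 9 for Sar1B:H79G against Sar1A and 1 for Sar1A against Sar1B. With only the groups compared they were 3, 3 and 0 for the first 3 of these. Trend and robust options gave 2 for Sar1B and 1 for Sar1A against control, and quantile normalization gave 3 for Sar1B:H79G against Sar1A. With the line number as a replicate block Sar1B against control had 2 calls, Gadd45a among them (limma adjusted p = 0.0464), and Gadd45g lost its call between Sar1B:H79G and Sar1B; it changed no other call of a member.

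When single lines were left out, the counts ranged from 5 to 7 for Sar1B:H79G against control, from 4 to 6 against Sar1B (4 without Sar1B line 2) and from 0 to 5 against Sar1A (0 without either control line, 2 and 1 without Sar1B:H79G line 1 and 2). For Sar1B against control they ranged from 0 to 3, with 0 without control line 2 or either Sar1B line and 3 without either Sar1B:H79G line. For Sar1A against control and against Sar1B they stayed at 0. Averaging a gene's probe sets moved no count of called genes by over 1.5 times. The comparisons with the single Sar1A line are the least stable, and without detection calls the dim Gadd45b and Ccnd1 probe sets may lie near background.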
